A study of Mus musculus with 4 samples.

Results

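Olfm4 (olfactomedin 4, ENSMUSG00000022026) was examined as 1 of the 33696 genes counted in 4 single-cell libraries of mouse bone marrow. It was chosen by its measured level in neutrophil-lineage cells, which differed between the B12 and Control libraries, so those values are given as a description. Olfm4 encodes a secreted glycoprotein that neutrophils store in their specific (secondary) granules. In human and mouse blood only part of the neutrophils carries the protein, and the gene also marks stem cells of the human intestine. Neutrophil precursors divide while they fill their primary and then their secondary granules, leave the cell cycle, and later switch on genes of tertiary granules and of migration, such as Retnlg.

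The study crossed vitamin B12 injections with butyrate in the drinking water. Lethally irradiated mice received CD45.2+ Tet2+/- marrow mixed 50:50 with CD45.1+ Tet2+/+ competitor marrow, engrafted for 1 month and were treated for 7 months. Mice of the B12+Butyrate group received 2 intraperitoneal injections of 0.29 µg B12 per week and water with 100 mM NaButyrate. B12 mice received the same injections and water with 100 mM NaCl. Butyrate mice received PBS injections and water with 100 mM NaButyrate, and Control mice received PBS and water with 100 mM NaCl. All libraries therefore come from irradiated, transplanted hosts. The sort for CD45.2 described next selects the Tet2+/- donor cells over the CD45.1+ Tet2+/+ competitor cells. The genotype of the sorted cells and the purity of the sort were not checked here. Marrow of 3 mice per group was viably frozen, pooled and sorted for live CD45.2+ cells, and cKit+ and cKit- cells were then mixed 50:50. Shares of cell types below are therefore shares of that mixture and not of marrow.

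Each group is 1 library, and the 3 mice inside it cannot be told apart. No comparison between groups was tested, and the intervals given (95%, exact Poisson for levels and exact Clopper-Pearson for shares) cover counting error only. Intervals of ratios of shares are normal approximations on the log scale. Those of thinned shares apply the Clopper-Pearson formula to mean counts of cells, so they are not exact. After filtering, 7616, 8048, 6793 and 8752 cells remained in B12+Butyrate, B12, Butyrate and Control, with a median of 12315, 12544.5, 11807 and 11583.5 UMIs (unique molecular identifiers, counted RNA molecules) per cell. Any pair of libraries shared between 8 and 23 cell barcodes. Neutrophil-lineage cells were gated as cells in which Camp and Ngp, both secondary granule genes, made up at least 1% of the UMIs. The gate held 3909 cells of B12+Butyrate, 4151 of B12, 2660 of Butyrate and 3476 of Control, which is 51.3%, 51.6%, 39.2% and 39.7% of each library. Ltf and Cd177, also secondary granule genes, were seen in nearly all of its non-cycling cells with little Retnlg. In each library Ltf was seen in between 97.5% and 98.4% of these cells and Cd177 in between 98.6% and 99.1%. Mmp8, another gene of these granules, was seen in only between 9.93% and 13.8% of them.

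The stretch of genome just before the start of the gene is shown because the results below turn on a gene that is on in some cells and off in their neighbours. RefSeq places it on the plus strand at chr14:80000052-80000301 of build GRCm38.p6, which is not the build of the counts.
Olfm4 promoter: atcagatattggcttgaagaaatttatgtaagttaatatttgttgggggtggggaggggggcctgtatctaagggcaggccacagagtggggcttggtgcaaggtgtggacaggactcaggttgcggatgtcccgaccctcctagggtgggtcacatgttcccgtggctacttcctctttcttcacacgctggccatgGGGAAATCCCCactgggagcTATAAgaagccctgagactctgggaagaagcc
Capitals mark matches to the NF-kB consensus, which lie between 52 and 42 bases before the start and overlap each other on both strands, and a TATAA match. The NF-kB consensus was present in 7.25% of 32851 such windows of all genes, and in 1 of the 10 secondary granule genes with a window. TATAA was present in 22.8% of all windows. TTGCNNAA, a C/EBP-like motif, had no match in this window and was present in 9.56% of all windows and in 4 of the 10 secondary granule windows. GAGGAA, an ETS-like motif searched on both strands as the others were, had 1 match and was present in 23.3% of all windows.

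Olfm4 was nearly confined to neutrophil-lineage cells. The gate held 97.9% of the Olfm4 UMIs of B12+Butyrate, 97.4% of those of B12, 98.4% of those of Butyrate and 95.5% of those of Control. Cells outside the gate with at least 0.5% Retnlg, a marker of late neutrophils, held most of the rest: with them the shares were 99.7%, 99.5%, 99.6% and 99.2%. B-like cells, which should lack the gene, gave its background. A single Olfm4 UMI was found in 2 of 1029 B-like cells of B12+Butyrate, 2 of 515 of B12 and 2 of 991 of Butyrate, and in 0 of 851 cells of Control, which allows a share of cells with a UMI of up to 0.353% when 3 counts are taken as the limit. Monocyte-like cells carried at most 1 UMI each, in 0.605%, 0.961%, 0.265% and 0.25% of cells. B-like cells were shallower than the gate, with a median of 5205, 4076, 4906 and 4928 UMIs in B12+Butyrate, B12, Butyrate and Control, against 15786, 15376, 16411.5 and 15647.5 UMIs in gate cells.

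**Figure D1:**
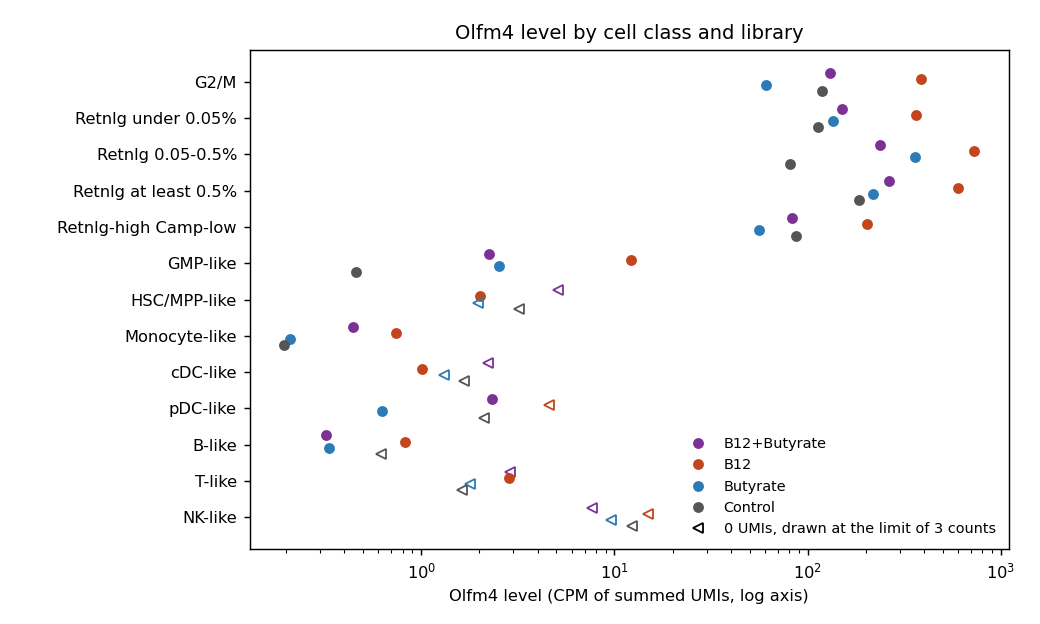
Olfm4 level in each cell class (rows) as CPM of the UMIs summed over the class, on a log axis, with 1 point per library. The 5 neutrophil rows sit between 56.1 and 728 CPM, and the other classes at or below 12.2 CPM or at 0 (open triangles, drawn at the level that 3 counts would give).

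Within the gate, Olfm4 was either off or strongly on. It stood at 159 CPM (UMIs summed over cells and scaled to a fixed library total) in B12+Butyrate (95% interval 156 to 162), 405 CPM in B12 (400 to 410), 135 CPM in Butyrate and 116 CPM in Control. Those levels came from few cells with many UMIs each. The Poisson intervals take each UMI as independent, so they are too narrow for the sampling of cells. At least 1 UMI was found in 8.26% of gate cells of B12+Butyrate (95% interval 7.42% to 9.17%), 19.6% of B12 (18.4% to 20.8%), 6.65% of Butyrate and 6.85% of Control. Had the same UMIs been spread over all gate cells in proportion to depth, 88.1%, 97.9%, 84.6% and 79.2% of cells would have carried one.

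Few cells lay between the states. Cells with 1 to 4 Olfm4 UMIs numbered 31, 52, 15 and 34 in B12+Butyrate, B12, Butyrate and Control, and cells with at least 5 UMIs numbered 292, 760, 162 and 204. The limit of 5 UMIs was put between the groups of values after they were seen, and cells above it are called Olfm4-high. They held between 99.3% and 99.7% of the gate's Olfm4 UMIs in each library, with a median of 35 UMIs per cell in B12+Butyrate, 34 in B12, 37 in Butyrate and 31 in Control, and a highest cell of 102, 121, 99 and 96 UMIs.

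**Figure D2:**
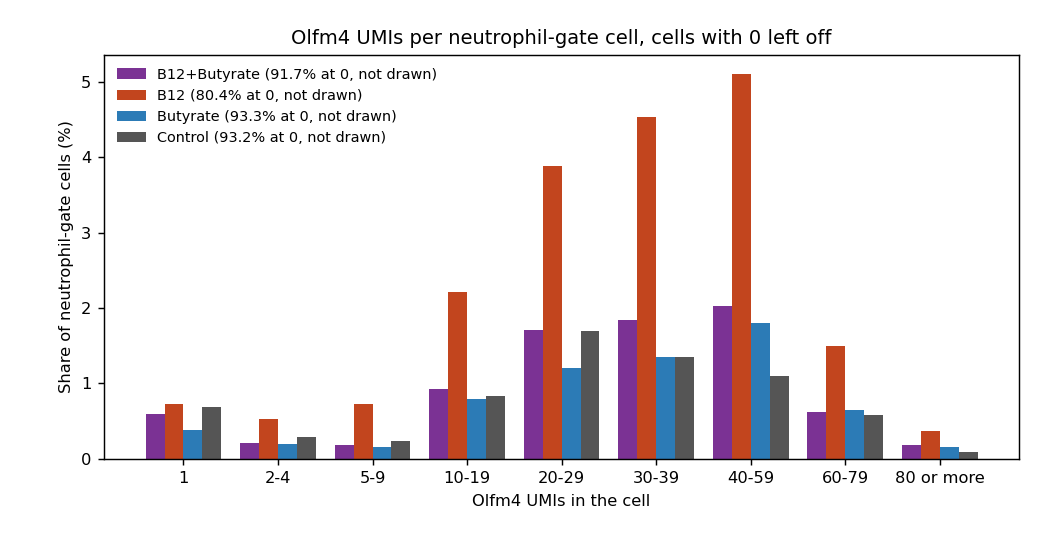
Share of neutrophil-gate cells (%) by the number of Olfm4 UMIs in the cell, for each library, with cells at 0 left off and their share given in the legend. The positive cells peak at 20 to 59 UMIs in every library, and few hold 2 to 9.

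Most other secondary granule genes were not split in this way. Camp and Ngp set the gate, so their detection in it was fixed in advance. In non-cycling gate cells of B12+Butyrate with Retnlg under 0.05% of UMIs, Lcn2, Cybb, Chil3 and Lyz2 were each seen in at least 99.9% of cells. They stood between 1939 and 13326 CPM there, against 150 CPM for Olfm4, and at such levels a UMI in each cell is likely. Mmp8 (neutrophil collagenase) was the exception among the listed secondary granule genes, seen in 13.8% of cells of B12+Butyrate, 11.5% of B12 and 9.93% of Butyrate. The ratio of the observed share of positive cells to the share that an even spread would give was 0.0915 for Olfm4 in B12+Butyrate, 0.196 in B12, 0.0823 in Butyrate and 0.0889 in Control. Among genes between 50 and 1000 CPM it ranked 2nd lowest of 2496 genes in B12+Butyrate, 5th of 2539 in B12, lowest of 2515 in Butyrate and 2nd of 2606 in Control, where the median gene had a ratio of 0.93 in each library. Genes near it in that order were mostly markers of other cell types, such as the immunoglobulin chain Igkc and the MHC class II chain Cd74, besides Mmp8 in B12+Butyrate. In B12, Butyrate and Control Mmp8 stood at 44.5, 47.1 and 35.4 CPM, under the limit of 50 CPM, and was not ranked.

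Olfm4 was present from the first granule-filling cells to late neutrophils, at shares of cells that varied with the stage and the library. At Camp plus Ngp of 1 to 2% of UMIs, the lowest step inside the gate, 6.19% of cells of B12+Butyrate, 11.9% of B12, 6.33% of Butyrate and 5.70% of Control were Olfm4-high. At 8% and above the shares were 7.38%, 19.2%, 6.30% and 5.50%. GMP-like cells, the granulocyte-monocyte progenitors before that step, had 1, 4, 1 and 0 Olfm4-high cells out of 240, 374, 205 and 390.

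Stages inside the gate were set by cell-cycle genes and then by Retnlg. Since depth fell along the stages, shares were compared after thinning each cell to 2000 UMIs, as the mean of 100 draws. In G2/M cells 7.58% of B12+Butyrate, 19.5% of B12, 3.26% of Butyrate and 6.62% of Control cells kept an Olfm4 UMI, against 9.0%, 21.4%, 4.33% and 7.95% before thinning. In non-cycling cells with Retnlg under 0.05% the thinned shares were 7.06%, 17.2%, 6.37% and 5.71%, and 8.21%, 19.3%, 7.17% and 7.31% before. With Retnlg of 0.05 to 0.5% they were 6.84%, 21.6%, 7.13% and 3.75%, and 7.51%, 22.9%, 7.17% and 4.69% before. With Retnlg of 0.5% or more they were 8.18%, 15.3%, 6.27% and 5.34%, and 8.31%, 15.8%, 6.40% and 5.36% before. Olfm4 was most often seen in the B12 library at each of these stages. It was picked for its level in B12 over Control in gate cells, which these stages divide, so that order is partly set by the choice. The thinned intervals of the other libraries lay below the one of B12 at each stage. They cover the counting of cells within a library and not the spread between mice, so no difference between groups is drawn from them.

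The limit for cycling left between 3 and 19 cells per library in S phase, too few to describe. At a looser limit of 0.25%, S-phase cells numbered 597 in B12+Butyrate, and 9.05% of them carried an Olfm4 UMI before thinning, against 17.6% in B12, 7.60% in Butyrate and 7.39% in Control. At the same limit the shares were 7.80%, 21.3%, 4.95% and 7.22% in G2/M cells, and 8.39%, 19.6%, 7.56% and 7.60% in non-cycling cells with Retnlg under 0.05%. The level was lower in G2/M cells there, at 107, 340, 73.0 and 87.4 CPM, against 211, 501, 170 and 171 CPM in those non-cycling cells.

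The level in Olfm4-high cells was higher in gate cells with Retnlg of 0.05% or more than in G2/M cells, whereas their median number of Olfm4 UMIs was lower with Retnlg of 0.5% or more than in G2/M cells in each library. Summed over Olfm4-high cells it was 1619, 1772, 1552 and 1490 CPM in G2/M cells of B12+Butyrate, B12, Butyrate and Control, and 1912, 1968, 2010 and 1690 CPM with Retnlg under 0.05%. With Retnlg of 0.05 to 0.5% it was 3245, 3167, 4529 and 2653 CPM, and with Retnlg of 0.5% or more it was 3427, 3851, 3215 and 4088 CPM. The median number of Olfm4 UMIs was 38, 36.5, 34 and 32 in G2/M cells, 37, 42, 52.5 and 28 at Retnlg of 0.05 to 0.5% and 25, 28, 25 and 31 at Retnlg of 0.5% or more, where the Olfm4-high cells of B12+Butyrate had a median of 7208 UMIs in all, against 22280 UMIs in its G2/M cells. In late cells outside the gate, Retnlg-high and Camp-low, the median was 8, 11, 11 and 10 UMIs, in Olfm4-high cells with a median of 5045, 5535, 5626 and 5730 UMIs in all. Their level was 2002, 2027, 2282 and 1595 CPM, above that of Olfm4-high G2/M cells in each library. The limit of 5 UMIs stands for a higher CPM in such shallow cells, so this order is partly set by the limit. Over all cells with an Olfm4 UMI the level was 1260, 1254, 1397 and 1174 CPM in the late cells. In G2/M cells it was 1394, 1712, 1304 and 1348 CPM, lower than in the late cells in Butyrate only.

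**Figure D3:**
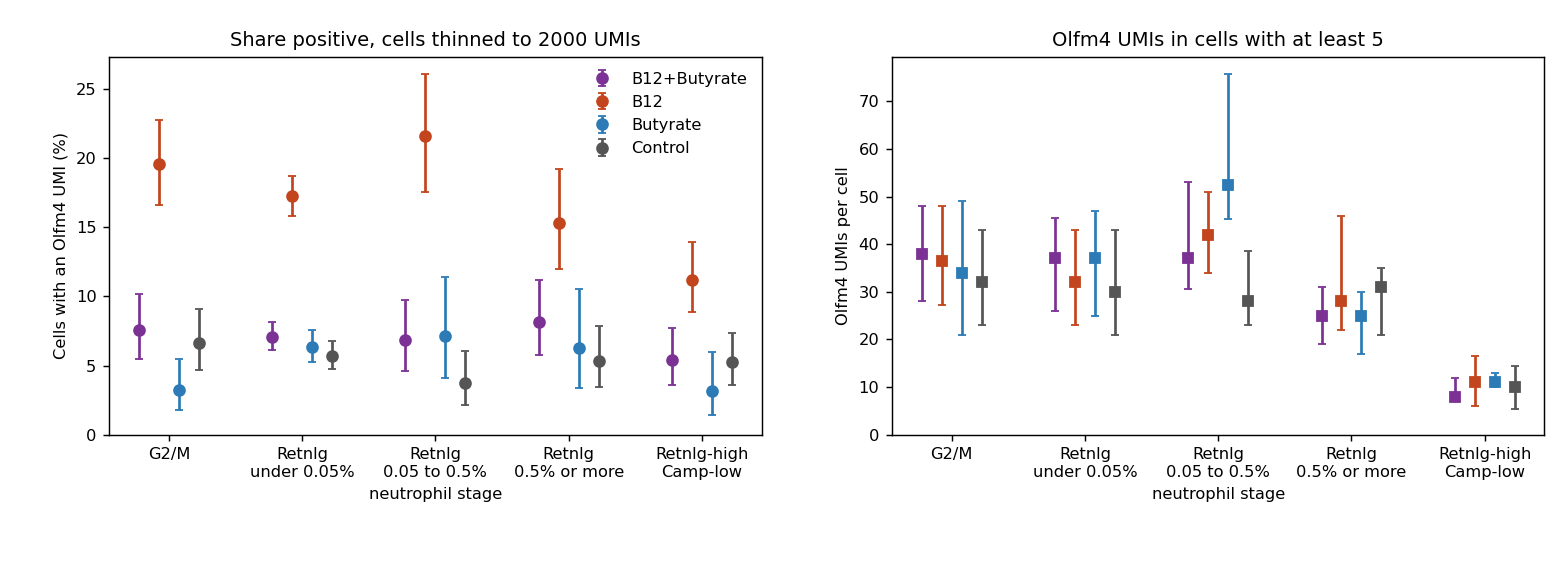
Left, share of cells (%) with an Olfm4 UMI after thinning to 2000 UMIs, by neutrophil stage and library, with 95% Clopper-Pearson intervals computed on mean counts. Right, median Olfm4 UMIs in cells with at least 5, with bars for the middle 50% of cells. B12 lies highest at each stage on the left, and on the right the libraries lie between 25 and 52.5 UMIs inside the gate.

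Olfm4-high and Olfm4-zero cells of a library had similar depth. In B12+Butyrate the Olfm4-high cells had a median of 15770 UMIs, against 15766 UMIs in Olfm4-zero cells, and in B12 16041 against 15179 UMIs. Butyrate had 16581 against 16392 UMIs and Control 16322 against 15562 UMIs. Camp plus Ngp took 8.68% of UMIs in Olfm4-high cells and 8.61% in Olfm4-zero cells of B12+Butyrate, 8.74% and 8.49% in B12, 8.50% and 8.55% in Butyrate, and 7.70% and 8.07% in Control. Stage makeup differed more: G2/M cells made up 14.04% of Olfm4-high and 13.2% of Olfm4-zero cells of B12+Butyrate, 18.2% and 15.9% in B12, 9.26% and 16.03% in Butyrate, and 18.1% and 15.01% in Control. Cells with Retnlg of 0.05 to 0.5% made up 9.59% and 10.7%, 10.7% and 8.89%, 9.88% and 8.34%, and 7.35% and 11.9% in the same libraries.

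Gene by gene, the cells were compared within non-cycling cells with Retnlg under 0.05%, with at least 118 Olfm4-high and 1682 Olfm4-zero cells in each library. A gene was called past 2-fold on the log2(CPM + 10) scale. Olfm4, which set the groups, was left out of the counts, and the calls were 0% of 7008 genes higher and 0.0428% lower in B12+Butyrate, 0.0142% and 0.0427% of 7024 in B12, 0.07% and 0.056% of 7144 in Butyrate, and 0.0137% and 0.109% of 7316 in Control. No gene besides Olfm4 was higher in all 4 libraries. Only Igkc and Jchain, both made by antibody-producing cells, were lower in all 4. Igkc stood at 21.2 CPM in Olfm4-high and 154 CPM in Olfm4-zero cells of B12+Butyrate, 5.68 and 131 CPM in B12, 44.4 and 313 CPM in Butyrate, and 23.2 and 365 CPM in Control. Among all cells of this stage Igkc was seen in 5.71% in B12+Butyrate, 2.9% in B12, 9.49% in Butyrate and 10.7% in Control. Jchain was seen in 1.91% in Control. These levels thus came from few cells, and they do not describe most cells of either group. Cells with at least 3 lymphoid markers made up 1.37% of Olfm4-high and 1.90% of Olfm4-zero gate cells of B12+Butyrate, 1.71% and 1.53% in B12, 4.32% and 2.21% in Butyrate, and 4.90% and 2.93% in Control. Their part in the Igkc difference was not tested.

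Among the primary granule genes, which precede the secondary granules, 1 of the 5 measured passed 2-fold, Ctsg in B12+Butyrate. Ctsg stood at 64.8 CPM in Olfm4-high and 155 CPM in Olfm4-zero cells of B12+Butyrate, 230 and 223 CPM in B12, 68.4 and 134 CPM in Butyrate, and 186 and 291 CPM in Control. Mpo had log2 differences of -0.60, -0.05, -0.98 and -0.22 in the same order, and Ms4a3 was lowest in Control, at -0.31. Elane (neutrophil elastase) stood at 823 CPM in Olfm4-high and 1106 CPM in Olfm4-zero cells of B12+Butyrate, 1271 and 1475 CPM in B12, 670 and 1060 CPM in Butyrate, and 1250 and 1526 CPM in Control. Prtn3 (proteinase 3) differed by -0.43, -0.25, -0.53 and -0.27 on the log2 scale in the same order. The median of the 5 measured genes of that list was -0.43 in B12+Butyrate, -0.14 in B12, -0.65 in Butyrate and -0.29 in Control, where the median of all genes lay within 0.02 of 0. Secondary granule genes, all 11 measured, had medians of 0.01, 0.07, -0.01 and 0.05, and no member passed 2-fold. None of the 10 tertiary granule and maturity genes, the 10 neutrophil regulators, the 8 NF-kB feedback genes or the 2 Olfm family members and partners that reached the minimum passed 2-fold either.

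**Figure D4:**
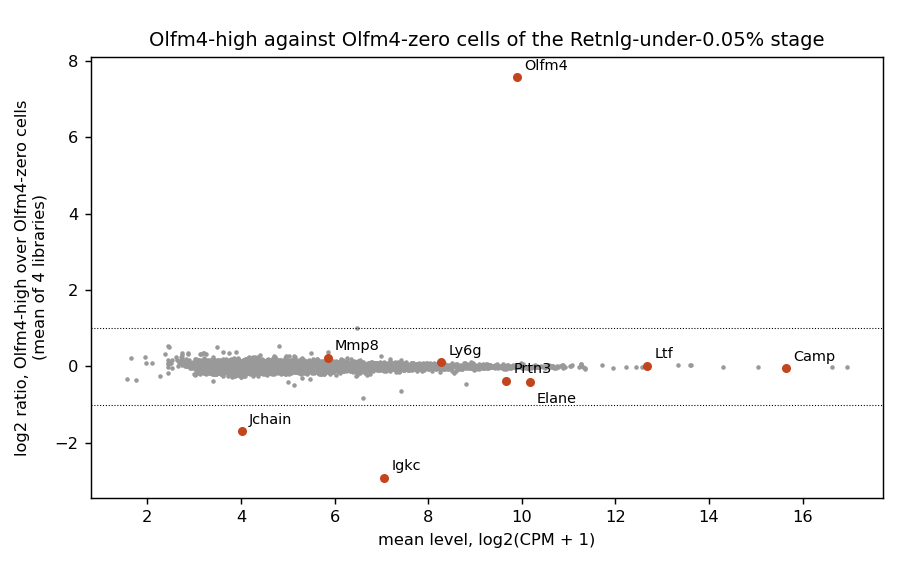
Each point is a gene, with its mean level in log2(CPM + 1) on the horizontal axis and the log2 ratio of Olfm4-high over Olfm4-zero cells, averaged over the 4 libraries, on the vertical axis. Olfm4 stands alone at the top at 7.57, Igkc lies at -2.91 and Jchain at -1.69, and the dotted lines mark 2-fold. The next highest mean after Olfm4 is that of Prg2, at 1.02, which was not past 2-fold higher in all 4 libraries.

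At other stages the cells were fewer and the counts noisier. In G2/M cells, with between 15 and 138 Olfm4-high cells per library, F13a1, which encodes a coagulation factor XIII chain and marks monocytes, was lower in all 4 libraries. The share of genes past 2-fold higher and lower was 0.128% and 0.185% in B12+Butyrate, 0.0726% and 0.0435% in B12, 0.557% and 1.18% in Butyrate, and 0.222% and 0.291% in Control. F13a1 stood at 0 and 23.0 CPM in Olfm4-high and Olfm4-zero cells of B12+Butyrate, 2.67 and 35.7 CPM in B12, 2.90 and 16.5 CPM in Butyrate and 6.78 and 61.3 CPM in Control. With Retnlg of 0.05 to 0.5%, Mpo (myeloperoxidase), Ctsg (cathepsin G) and Kcnq5 were lower in all 4, where 0.27% and 3.14% of genes were past 2-fold higher and lower in B12+Butyrate, 0.189% and 0.392% in B12, 2.7% and 7.53% in Butyrate, and 2.63% and 5.56% in Control. Mpo stood at 19.7 and 95.9 CPM in B12+Butyrate, 17.5 and 264 CPM in B12, 31.4 and 374 CPM in Butyrate and 103 and 535 CPM in Control, with 28, 81, 16 and 15 Olfm4-high cells. No gene besides Olfm4 was higher in all 4 at either stage.

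Across single cells no gene followed Olfm4 closely. Over 8901 genes in the Retnlg-under-0.05% cells, the highest median Pearson r over the 4 libraries was 0.06, for Slfn1, and the lowest -0.06, for Rpl35a. No gene exceeded 0.1 in all 4 libraries, and these weak values are given as a description only. Ltf and Lcn2 in the same cells had r of 0.81 in B12+Butyrate, 0.81 in B12, 0.82 in Butyrate and 0.86 in Control. Camp and Ngp had 0.51, 0.58, 0.56 and 0.62 in the same order. Pairs with Mmp8, which like Olfm4 was seen in few cells, had lower values. Mmp8 and Cd177 had r of 0.20, 0.16, 0.15 and 0.12, and Ltf and Mmp8 had 0.21, 0.19, 0.17 and 0.15. Across the means of 10 cell classes, the genes with the highest r of 6276 genes were Itgb2l (r 0.99), Mapk13, Klf5, Chil1, Fmo5, Ly6g, Tnfsf13b and Lcn2 (0.98). Olfm4 was near 0 outside the neutrophil classes, so any gene confined to neutrophils has a high r on that measure. Over 24 points of neutrophil stage and library, the highest r of 4916 genes was 0.87, for Pfkfb3. The nearest RefSeq neighbours of Olfm4 on chromosome 14, Pcdh8 and Pcdh17, were at 0 CPM and at or below 0.116 CPM in the gate. Of the next ones expressed, Sugt1 stood at 80.2 and 75.4 CPM in Olfm4-high and Olfm4-zero cells of B12+Butyrate, 75.4 and 77.6 CPM in B12, 82.5 and 73.5 CPM in Butyrate, and 72.4 and 73.5 CPM in Control. Diaph3 stood at 68.1 and 77.6 CPM, 85.8 and 86.9 CPM, 68.0 and 87.2 CPM, and 98.7 and 95.3 CPM in the same libraries.

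Between libraries, Olfm4 was higher in B12 than in Control. At 405 CPM in B12 and 116 CPM in Control, its log2 ratio (pseudocount 10 CPM) of 1.72 ranked 1st of 7087 genes from the highest. On that scale it was the only gene past 2-fold higher (0.0141% of genes), and Prg2, which eosinophils express strongly, was the only one lower (0.0141%). Prg2 stood at 1.06 CPM in B12 and 15.1 CPM in Control, a larger ratio than that of Olfm4 without the pseudocount. The difference lay in the number of Olfm4-positive cells: their share was 2.86 times that of Control (95% interval 2.49 to 3.28), while the level in Olfm4-high cells was 2099 CPM in B12 and 1799 CPM in Control, a ratio of 1.17. This contrast was the ground on which the gene was picked.

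With butyrate in the water, B12 went with a smaller difference. Olfm4 stood at 159 CPM in B12+Butyrate and 135 CPM in Butyrate, a log2 ratio of 0.22 that ranked 52nd of 6950 genes, of which 0% were past 2-fold higher and 0.0288% lower. The share of positive cells was 1.24 times that of Butyrate (1.04 to 1.48), and the level in Olfm4-high cells was 2036 CPM in B12+Butyrate and 2169 CPM in Butyrate. No gene was past 2-fold higher in both comparisons of B12.

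Butyrate without B12 left Olfm4 near the Control level. It stood at 135 CPM in Butyrate and 116 CPM in Control, a log2 ratio of 0.21, in a comparison with 0.0141% of 7103 genes past 2-fold higher and 0.0985% lower. The share of positive cells was 0.972 times that of Control, with an interval of 0.805 to 1.17. With B12, the level was 159 CPM in B12+Butyrate and 405 CPM in B12, a log2 ratio of -1.30 and, with that pseudocount, the lowest of 6933 genes, of which 0% were higher and 0.0433% lower past 2-fold. Jchain, at 7.06 CPM in B12+Butyrate and 27.0 CPM in B12, had the larger ratio without it. The share of positive cells was 0.422 times that of B12 (0.374 to 0.477), and Olfm4-high cells stood at 2036 CPM in B12+Butyrate and 2099 CPM in B12. Each library enters 2 of these comparisons, so the ratios are not independent. The gene was picked for its level in B12 over Control, and the B12 library enters B12+Butyrate over B12 as well.

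**Figure D5:**
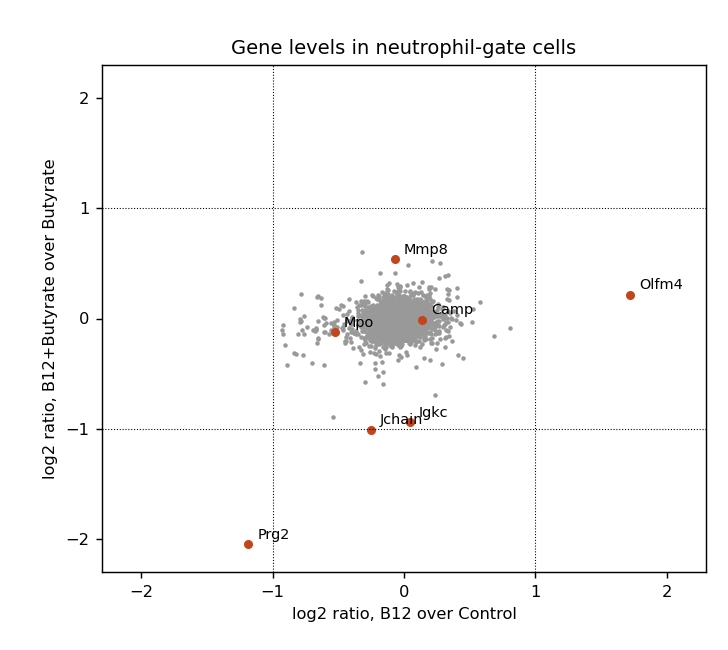
Each point is a gene in neutrophil-gate cells, with the log2 ratio of B12 over Control on the horizontal axis and of B12+Butyrate over Butyrate on the vertical axis. Olfm4 lies at 1.72 and 0.22, and Prg2 at -1.19 and -2.05, with dotted lines at 2-fold.

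None of the 11 secondary granule genes was past 2-fold in B12 over Control, with a list median of 0.01 beside -0.04 for all genes, nor in B12+Butyrate over B12, with 0.14 beside -0.02. Primary granule genes, 5 of 7 at the minimum, had a median of -0.30 in B12 over Control, -0.09 in B12+Butyrate over Butyrate, -0.75 in Butyrate over Control and -0.40 in B12+Butyrate over B12, where its members ran from -0.56 to -0.32. Of those, Ctsg was past 2-fold lower in Butyrate over Control, at 106 CPM in Butyrate and 230 CPM in Control. So was Irf8 of the regulators, which directs monocyte fate, at 15.1 CPM in Butyrate and 43.1 CPM in Control. The other genes past 2-fold lower in that comparison were Wfdc17, F13a1, Ms4a6c, Ccr2 and Zeb2. F13a1, Ms4a6c and Ccr2 were also markers of the monocyte-like class. F13a1 stood at 38.9 CPM in Butyrate and 95.4 CPM in Control, and Ccr2 at 21.2 and 54.7 CPM. Thbs1 was the gene past 2-fold higher, at 33.6 and 11.1 CPM. The part of monocyte RNA in the gate was not tested. Camp stood at 51567 CPM in B12+Butyrate, 51869 CPM in B12, 51927 CPM in Butyrate and 47201 CPM in Control. Of the 9 Olfm family members and partners, only Olfml2b and Ndufa13, a mitochondrial complex I subunit reported to bind OLFM4 in human cells, reached 10 CPM. Ndufa13 stood at 204, 198, 203 and 204 CPM in B12+Butyrate, B12, Butyrate and Control. NF-kB feedback genes, 8 of 12 at the minimum, had no member past 2-fold in any of the 4 comparisons. Nfkbia, which holds NF-kB in the cytoplasm, stood at 130, 138, 150 and 133 CPM.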

How the data were processed

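The deposited files hold UMI counts, 1 matrix for each of the 4 libraries. Cell Ranger 7.1.0 produced them, per the file headers, and the submitters' processing notes name GRCm39. The handling of intron reads was not stated. A cell needed 500 genes, 1000 UMIs and no more than 10% mitochondrial UMIs. CPM are a class's summed counts over its total. Log2 ratios used a pseudocount of 10 CPM, and genes needed 10 CPM in either library. S and G2/M stages needed 0.5% of UMIs in their list. Other cells took the class with the most of 6 markers, at least 3, and are written with -like. Doublets were kept, and their removal is an alternative. Thinned shares are means of 100 random draws. A single draw was used at first, and the mean was adopted after 2 draws with different seeds gave different Butyrate over Control ratios. The count model of a replicated test does not apply with 1 library per group.

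The gene, lists, markers and limits were chosen with earlier results of these data known. Named genes are Olfm4, the listed granule, regulator, Olfm family and NF-kB genes, the genes most correlated with Olfm4, those past 2-fold in all 4 libraries and those past 2-fold between libraries. Azu1 was not found under that symbol. The promoter was read from RefSeq on GRCm38.p6. Scripts were tested on simulated data. Work was done in Python 3.11.15 with matplotlib 3.10.9, scikit-learn 1.9.0, pandas 2.3.3, scipy 1.17.1 and numpy 2.4.6.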

Additional observations from a re-analysis of the deposited data

Results flagged for a closer look

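The difference of Olfm4 that went with butyrate was not the same with and without B12, by the direction of 1 library each. The log2 ratio in neutrophil-gate cells was -1.30 for B12+Butyrate over B12 and 0.21 for Butyrate over Control. Olfm4 was picked for its difference between B12 and Control. Both libraries enter this comparison, so the choice of the gene itself favours unlike ratios. The difference between these ratios, -1.5, was not tested, since each group is 1 library of pooled mice, and the sign of the ratio without B12 is not settled: the share of positive cells was 0.972 times that of Control, with an interval of 0.805 to 1.17.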

How the results depend on the processing

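The 4 log2 ratios of Olfm4 kept their direction under each of 12 alternatives, and moved by less than the 95% interval of the ratio of shares of positive cells, which is wider than the Poisson interval of the levels. B12 over Control ran from 1.59 to 1.80, B12+Butyrate over B12 from -1.34 to -1.25, B12+Butyrate over Butyrate from 0.10 to 0.27 and Butyrate over Control from 0.07 to 0.38. The alternative that left out S and G2/M cells was chosen after seeing the data. Thinning to 2000 UMIs is random: over 100 draws Butyrate over Control ran from -0.07 to 0.28 and was below 0 in 9 of them, so its sign is not settled at this depth. The 3 other ratios kept their sign in all 100 draws. With a pseudocount of 1 CPM, genes lower past 2-fold numbered 22 in place of 1 for B12 over Control and 26 in place of 7 for Butyrate over Control and 5 in place of 3 for B12+Butyrate over B12, and genes higher numbered 2 in place of 1 for each of the first 2 and 3 in place of 0 for the last. With median-of-ratios scaling, genes lower numbered 4 in place of 7 for Butyrate over Control and 1 in place of 2 for B12+Butyrate over Butyrate. With at least 5 UMIs as the limit, 18.3% of B12 and 5.87% of Control gate cells counted as positive. Of 76 alternative stage levels 11 moved. With Retnlg limits of 0.025% and 0.25%, Control with Retnlg of 0.05 to 0.5% stood at 174 in place of 81.3 CPM. With the 0.25% cycle limit, cells with Retnlg under 0.05% moved in each library. They stood at 211, 501, 170 and 171 CPM in B12+Butyrate, B12, Butyrate and Control, in place of 150, 365, 136 and 113 CPM. S-phase cells stood at 128 CPM in Butyrate and 85.1 CPM in Control with that limit, in place of 0 CPM. G2/M stood at 0, 0, 777 and 856 CPM with the 1% limit, which left between 2 and 5 such cells per library. In Retnlg 0.05 to 0.5% cells the highest median correlation was 0.13, among between 223 and 413 cells per library. No paired analysis was possible because each group has 1 library. Pooled mice, 1 library per group and the sorted mixture limit each comparison to these libraries.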
